A study of Mus musculus with 4 samples.

Results

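Tumor necrosis factor (TNF), its receptors and the proteins that carry its signal were followed in peritoneal macrophages of mice given AGEs or unmodified BSA. The 10 genes were chosen by name and pathway role from the 15575 genes of the deposited table. No rule on their values was used, but earlier results of these data were known. They are Tnf, the sheddase gene Adam17, the receptor genes Tnfrsf1a and Tnfrsf1b, the signalling genes Traf1, Traf2, Ripk1, Birc3 and Cflar, and the TNF-induced gene Tnfaip2, and all 10 passed the filter on low counts that kept 14181 genes. All mice were C57BL/6, with no genetic change named, the study's animals being males aged 8 to 12 weeks, and all were injected in the peritoneum with thioglycollate (TG), a sterile irritant to which monocytes respond by entering the cavity and maturing into macrophages. The AGEs group was given bovine serum albumin modified with dehydroascorbic acid and the BSA group the unmodified albumin, both intravenously each day at 10 mg/kg/day, starting 24 h ahead of TG. At 72 h after TG, peritoneal cells that adhered in culture were taken for sequencing of total RNA, with 2 libraries per group that the study calls biological duplicates. No source used here says if animals were pooled for a library.

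TNF is a cytokine that macrophages make in large amounts when they meet microbial products, first as a membrane protein that the metalloprotease ADAM17 cuts free. It acts through TNFR1, which carries a death domain, and TNFR2, which does not. Both receptors recruit TRAF2 with the cIAP ubiquitin ligases, and at TNFR1 the kinase RIPK1 joins them, from where the signal runs either to NF-kappaB and survival or, when that route fails, to caspase-8 and death.

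Total counts per library ran from 17773088 to 24472926, and Tnf and Traf1 were the members with the fewest reads. Of the libraries, BSA replicate 1 stood apart, at -34.6 on the first principal component against 5.08 to 16.9 for the other 3. All 7 macrophage markers were listed (Adgre1, Itgam, Csf1r, Cd68, Lyz2, Mertk and Fcgr1), with a summed level of 13600 to 17300 CPM (counts scaled to a library's total), and none passed the threshold between the groups. The T and NK cell markers Cd3e, Cd3d, Cd3g, Ncr1 and Klrb1c are not in the table used here, and the 4 B cell markers summed to 53.1 to 82.4 CPM. The summed dendritic cell markers were lower in the AGEs libraries. The most abundant of them, Ccr7, is also counted by the paper among the M1-associated macrophage genes that were lower with AGEs. The 4 dendritic cell markers that were listed of 5 summed to 15.8 and 13.1 CPM in the BSA and 6.86 and 10.1 CPM in the AGEs libraries. Of these, 3 (Flt3, Ccr7 and Cd209a) were past the threshold, and the marker Xcr1 is not in the table used here. Of the mast cell and basophil markers, 4 of 5 were listed, at a summed 1.82 to 5.41 CPM, and Gata2 was past the threshold. Neutrophil and eosinophil markers, of which 1 each was listed, reached at most 2.06 and 3.81 CPM, and the 4 mesothelial and fibroblast markers summed to 25.3 to 44.6 CPM.

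The promoters of Tnf and Tnfrsf1a are shown because these were the members whose BSA and AGEs libraries did not overlap. Tnf was lower and Tnfrsf1a higher in the AGEs libraries. Such separation was seen for 2 of the 10 members, against 35.3% of all genes tested. Neither gene had an unadjusted p under 0.05 in edgeR. Each sequence is the 250 bases before the start of the gene on its own strand, from RefSeq (GRCm38.p6). That of Tnf lies at chr17:35202008-35202257 on the minus strand and that of Tnfrsf1a at chr6:125349473-125349722 on the plus strand. Capitals mark a TATA box (TATAAA) and a GC box (GGGCGG, here on the opposite strand as CCGCCC).
Tnf: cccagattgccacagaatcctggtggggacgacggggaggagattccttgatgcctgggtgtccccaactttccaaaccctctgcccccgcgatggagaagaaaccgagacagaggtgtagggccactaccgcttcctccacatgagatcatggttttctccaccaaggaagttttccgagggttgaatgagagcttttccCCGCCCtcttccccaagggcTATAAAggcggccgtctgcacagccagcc
Tnfrsf1a: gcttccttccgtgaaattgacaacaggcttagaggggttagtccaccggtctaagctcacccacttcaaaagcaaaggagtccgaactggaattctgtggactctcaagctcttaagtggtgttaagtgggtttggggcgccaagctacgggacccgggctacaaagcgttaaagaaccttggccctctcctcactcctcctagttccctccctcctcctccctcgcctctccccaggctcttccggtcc
The TATA box of Tnf lies 29 bases before its start, and its GC box 49 bases before it. Neither motif is in the Tnfrsf1a window. Searched on both strands, TATAAA is found in 12.4% of all 32851 RefSeq promoter windows of this length and GGGCGG in 32.7%. Among the 11 windows of the members (Ripk1 has 2), 2 hold TATAAA (Tnf and Cflar) and 6 hold GGGCGG (Tnf, Tnfrsf1b, Adam17, Tnfaip2 and Ripk1). The AP-1 letters TGANTCA are in none of them and in 6.75% of all windows. The kappaB motif is in that of Tnfaip2 alone and in 9.55% of all. These matches describe letters and not sites of binding.

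The comparison of the AGEs and BSA libraries asked whether the modified albumin altered the transcripts of the TNF system in macrophages of an inflamed cavity. None of the 10 members passed the study's threshold (over 1.5-fold with an unadjusted p under 0.05), and none had an unadjusted p under 0.05 with edgeR, DESeq2 or limma-voom. Among all 14181 genes tested with edgeR's quasi-likelihood test, 1.77% passed the threshold in either direction (0.825% higher and 0.945% lower in the AGEs libraries, or 117 and 134 genes, against 59 and 142 on log2(TPM + 1)), 5.64% had an unadjusted p under 0.05 and 0% an adjusted p under 0.05. The members' unadjusted p ran from 0.143 to 0.983 in edgeR and their Benjamini-Hochberg adjusted p from 0.902 to 0.998. Their log2 fold changes (AGEs over BSA) had a median size of 0.021 without regard to sign, against 0.14 over all genes tested, and 7 of the 10 lay within 0.05 of no change. These sizes were not matched for read depth, so they do not show that the members varied less than genes of like depth. The signed median of the members was -0.0093, against -0.0026 over all genes, with 2 members on the positive and 8 on the negative side. For 8 members the 95% interval of the difference lay inside a 1.5-fold change in either direction (0.585 on the log2 scale), and for Tnf and Traf1, which had the fewest reads, it reached that limit. Groups did not overlap for 2 of the 10 members, against 35.3% of all genes tested. A two-sided exact permutation test of 2 libraries against 2 cannot give a p below 0.333, and the smaller p-values here draw on the spread that edgeR estimates across genes. In bulk libraries, fewer cells of a type and less RNA per cell cannot be told apart.

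**Figure D1:**
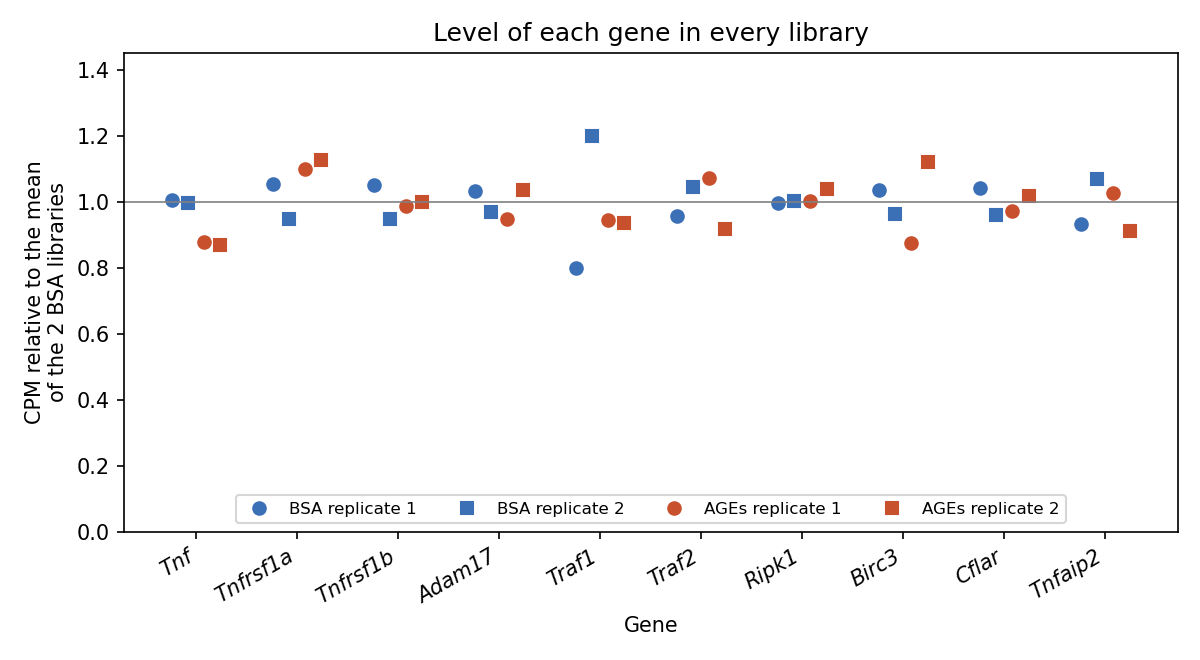
Level of each of the 10 genes in every library, as CPM divided by the mean of the 2 BSA libraries (vertical axis, from 0). Circles are replicate 1 and squares replicate 2, blue for BSA and red for AGEs. The groups are separated only for Tnf and Tnfrsf1a, and the widest gap within a group is that between the BSA libraries for Traf1, a ratio of 1.5.

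The ligand and its sheddase came first in the pathway. Tnf (Entrez gene 21926, on chromosome 17, GRCm38 positions 35199367 to 35202007) had 172 and 208 reads in the BSA and 190 and 200 reads in the AGEs libraries, or 9.51 and 9.43 against 8.30 and 8.23 CPM. Both AGEs libraries were below both BSA libraries, and the duplicates of each group lay close together. The log2 fold change of Tnf was -0.20 (SE 0.21, 95% interval -0.64 to 0.25), which with an unadjusted p of 0.361 in edgeR was not larger than the spread the test assigns to a gene of this depth. On the linear scale the interval ran from 0.641 to 1.19 times the BSA level. The sum of the dendritic cell markers given above was lower in the same libraries, and the part of such cells in the Tnf values was not tested.

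Adam17 (Entrez gene 11491, chromosome 12 from 21323509 to 21373632), which also sheds both TNF receptors, had 324 and 303 CPM in the BSA and 297 and 325 CPM in the AGEs libraries. The 2 groups covered almost the same range. Its log2 fold change was -0.013 (SE 0.086, 95% interval -0.20 to 0.17). The annotation places Iah1 across part of Adam17, and reads could have been shared, because no source used here states if counting used the strand. Iah1 had 32.8 and 32.4 CPM in the BSA and 35.8 and 40.1 CPM in the AGEs libraries, far below Adam17.

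Of the 2 receptor genes, neither passed the threshold, and Tnfrsf1b was the more abundant in every library. Tnfrsf1a (Entrez gene 21937, chromosome 6 from 125349723 to 125362483), which encodes TNFR1, had 69.2 and 62.1 CPM in the BSA and 72.2 and 73.9 CPM in the AGEs libraries. Both AGEs libraries were above both BSA libraries, with BSA replicate 2 the lowest. Its log2 fold change of 0.15 (SE 0.099, 95% interval -0.060 to 0.37) had the smallest p of the members, 0.143 unadjusted and 0.902 adjusted in edgeR. It was thus not larger than the spread that the test assigns to this gene. Without BSA replicate 1 the log2 fold change was 0.23, without BSA replicate 2 it was 0.084, and it was 0.057 once a trend with GC content was removed from each library. Tnfrsf1b (Entrez gene 21938, chromosome 4 from 145212368 to 145246870), which encodes TNFR2, had 521 and 470 CPM in the BSA and 489 and 495 CPM in the AGEs libraries. Here the AGEs libraries lay between the BSA libraries. The log2 fold change of Tnfrsf1b was -0.0097 (SE 0.085, 95% interval -0.19 to 0.17). Per transcript length, in the deposited TPM (transcripts scaled by length and total), the ratio of Tnfrsf1b to Tnfrsf1a within a library was 3.30 and 3.32 in the BSA pair and 2.98 and 2.94 in the AGEs pair. TNFR2 transcripts thus outnumbered those of TNFR1 in every library, by a smaller factor in both AGEs libraries. The numerator ran from 136 to 173 TPM and the denominator from 41.1 to 52.4 TPM. The exact permutation p was 0.333, the lowest that 2 against 2 can give. The test therefore cannot tell this ratio, or those given below, from no difference. On CPM, groups were separated for 35.3% of all genes tested.

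**Figure D2:**
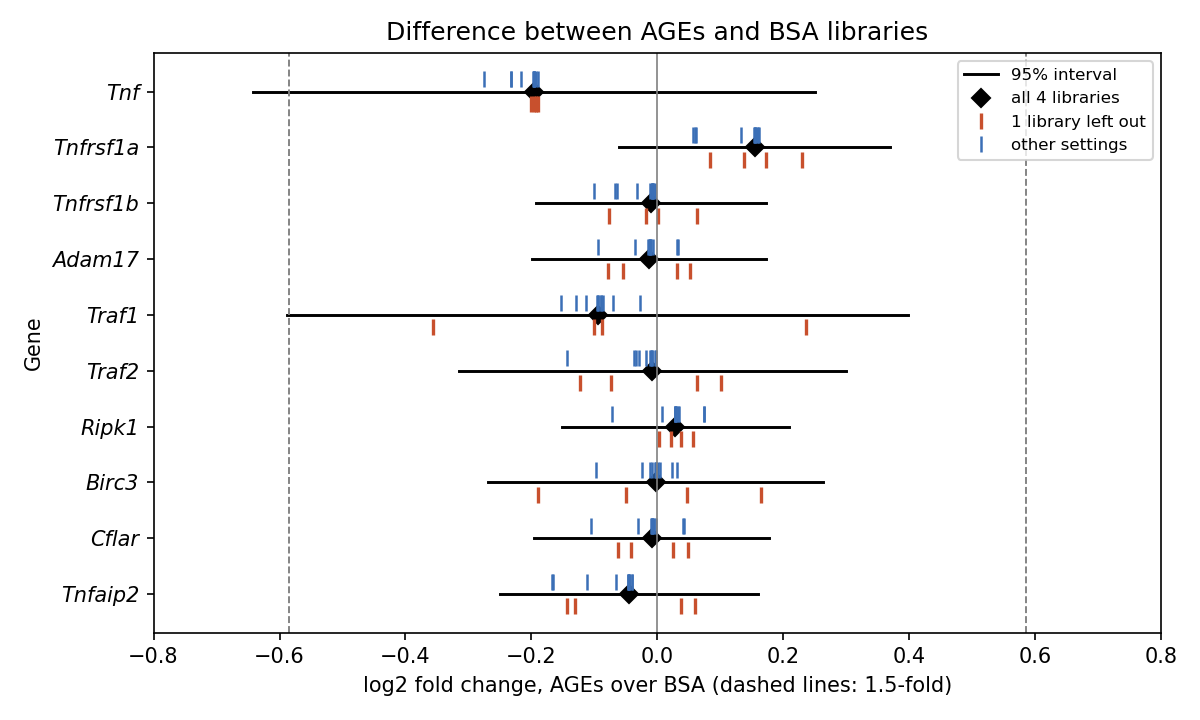
log2 fold change of each gene, AGEs over BSA (horizontal axis), with all 4 libraries (diamond) and its 95% interval (line). Red ticks leave out 1 library, blue ticks are the other processing settings, and dashed lines mark 1.5-fold. The intervals of Tnf and Traf1 reach the lower dashed line, and only Tnf and Tnfrsf1a keep all ticks on 1 side of 0.

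Of the signalling genes, none had groups that did not overlap, against 35.3% of all genes tested. They are too few for a difference from that share to be read. Traf1 (Entrez gene 22029, chromosome 2 from 34941750 to 34961812), an adaptor of TNFR2 that binds TRAF2 and is itself induced by NF-kappaB, had 146 and 267 reads in the BSA and 218 and 229 reads in the AGEs libraries, or 8.07 and 12.1 against 9.52 and 9.43 CPM. The AGEs libraries lay between the BSA libraries, which differed by a ratio of 1.5, the widest gap between duplicates among the members. Its log2 fold change was -0.095 (SE 0.23, 95% interval -0.59 to 0.40), and it took its sign from 1 library. Without BSA replicate 1 it was -0.36 and without BSA replicate 2 it was 0.24.

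Traf2 (Entrez gene 22030, chromosome 2 from 25517982 to 25546940), the adaptor shared by both receptors, had 23.3 and 25.4 CPM in the BSA and 26.1 and 22.4 CPM in the AGEs libraries. The AGEs libraries held both the highest and the lowest value. Its log2 fold change was -0.0079 (SE 0.14, 95% interval -0.32 to 0.30). Per transcript length, the ratio of Traf1 to Traf2 was 0.407 in BSA replicate 1, 0.562 in BSA replicate 2, 0.512 in AGEs replicate 1 and 0.534 in AGEs replicate 2. Traf1 was thus the lesser transcript in each library, and the groups overlapped.

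Ripk1 (Entrez gene 19766, chromosome 13 from 34002225 to 34035170), the kinase at the branch between survival and death, varied least, with 151 and 152 CPM in the BSA and 152 and 157 CPM in the AGEs libraries, giving a log2 fold change of 0.029 (SE 0.083, 95% interval -0.15 to 0.21). Serpinb6a, which overlaps Ripk1 in the annotation, had 362 and 330 CPM in the BSA and 344 and 319 CPM in the AGEs libraries, so that any reads shared with it would weigh more here than for Adam17.

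Birc3 (Entrez gene 11796, chromosome 9 from 7847468 to 7873205), which encodes the ubiquitin ligase cIAP2, had 57.0 and 53.0 CPM in the BSA and 48.2 and 61.5 CPM in the AGEs libraries. The BSA libraries lay between the AGEs libraries, which differed by a ratio of 1.28. Its log2 fold change was -0.0027 (SE 0.12, 95% interval -0.27 to 0.26), and it was 0.16 without AGEs replicate 1 and -0.19 without AGEs replicate 2. Birc2, which encodes the related ligase cIAP1, was lower in both AGEs libraries, with values given under the receptor complex. The TPM ratio of Birc3 to Birc2 was 1.46 and 1.68 in the BSA pair and 1.69 and 2.24 in the AGEs pair. The groups were separated by a narrow margin, BSA replicate 2 against AGEs replicate 1, with an exact permutation p of 0.333.

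Cflar (Entrez gene 12633, chromosome 1 from 58711311 to 58758884) encodes c-FLIP, which holds caspase-8 in check at the death-inducing complexes. It had 195 and 179 CPM in the BSA and 181 and 190 CPM in the AGEs libraries. Both AGEs values fell between the BSA values, and the log2 fold change was -0.0088 (SE 0.086, 95% interval -0.20 to 0.18). Tnfaip2 (Entrez gene 21928, chromosome 12 from 111442450 to 111455018), a gene found through its induction by TNF, had 282 and 323 CPM in the BSA and 310 and 276 CPM in the AGEs libraries. Its groups overlapped, with a log2 fold change of -0.045 (SE 0.095, 95% interval -0.25 to 0.16). Tnfaip2 has the highest GC content of the members, 57.3%, and the removal of the GC trend together with a replicate block took its value to -0.17, with an unadjusted p of 0.0799 in edgeR, the lowest it reached under any setting.

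**Figure D3:**
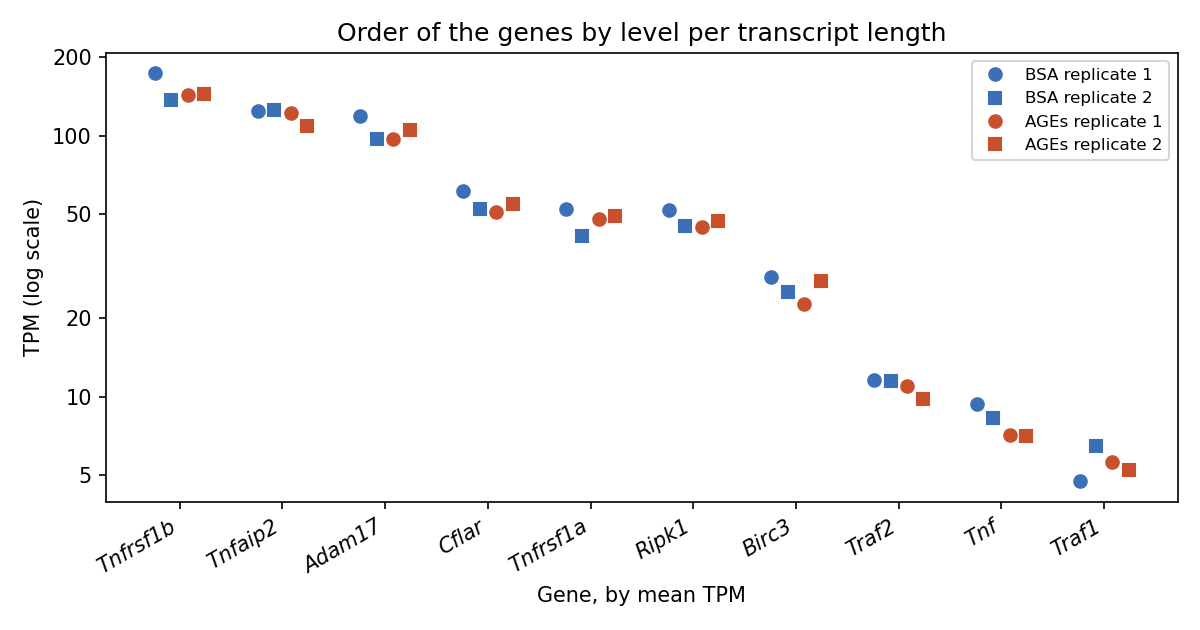
TPM of the 10 genes in every library (vertical axis, log scale), ordered by the mean of the 4 libraries. Circles are replicate 1 and squares replicate 2, blue for BSA and red for AGEs. Tnfrsf1b stands highest with a mean of 149 TPM and Traf1 lowest with 5.51 TPM.

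Levels per transcript length spread over more than an order of magnitude. Tnfrsf1b was the highest of the members, with a mean of 149 TPM over the 4 libraries (136 to 173). Tnfaip2 followed with 120 TPM (109 to 125) and Adam17 with 104 TPM (96.7 to 119), and these 2 overlapped in range, although Tnfaip2 was the higher in 4 of 4 libraries. A middle group held Cflar at 54.7 TPM, Tnfrsf1a at 47.6 TPM and Ripk1 at 47.1 TPM, whose ranges overlapped from neighbour to neighbour. Birc3 stood alone at 26.1 TPM (22.7 to 28.7) and Traf2 at 11.0 TPM (9.76 to 11.6). The ligand was near the bottom, with Tnf at 7.95 TPM (7.07 to 9.33), and Traf1 was last at 5.51 TPM (4.73 to 6.46). Transcripts of the 2 receptors and the sheddase were thus each several times more abundant than those of TNF in all 4 libraries.

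Further TNF pathway genes were taken in 6 lists by role, written with earlier results of these data known, holding 114 genes of which 91 were in the table and 90 passed the filter. Of these 90, 1 gene (Il1b) passed the threshold as lower in the AGEs libraries and none as higher, against 0.945% and 0.825% of all genes. At an unadjusted p under 0.05 were 7 genes (7.78%, against 5.64% of all), 4 higher and 3 lower. Over the 8711 genes above 3 on the log2 CPM scale, log2 fold changes rose with GC content (Spearman correlation 0.465). With the GC trend removed, Junb, Ltbr, Birc2 and Map3k5 no longer had an unadjusted p under 0.05 in edgeR. Il1b, Ikbke and Tab2 kept one, and among the genes named below Adam10 gained one. The log2 fold changes of Junb and Ltbr fell from 0.41 to 0.19 and from 0.32 to 0.14. Those of Birc2 (-0.31 to -0.25) and Map3k5 (0.27 to 0.26) moved less, with edgeR p-values of 0.0517 and 0.0524, just past the limit. With a replicate block added to the GC offset, these 2 were under the limit again, at 0.0445 and 0.00881 in edgeR. The median log2 fold change of the 90 was 0.040 against -0.0026 over all genes, with 47 positive and 43 negative, and groups did not overlap for 27 of the 90, against 35.3% of all genes. All lists and members came from 1 fit.

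The 12 genes of TNF release, which control the decay of its mRNA or its shedding, held none past the threshold and none at an unadjusted p under 0.05, with a median of 0.047. Timp3, the tissue inhibitor that blocks ADAM17, had 8.40 and 5.62 CPM in the BSA and 4.19 and 5.02 CPM in the AGEs libraries. Both AGEs libraries were below both BSA libraries, and the log2 fold change was -0.60 (SE 0.28, unadjusted p 0.0510 in edgeR). It was past 1.5-fold and just short of the p limit, which it passed when libraries were scaled by total counts alone (-0.62) and without BSA replicate 2 (-0.86). Without BSA replicate 1 it was -0.29. Timp3 lies within the span of Syn3, so its reads are uncertain for the same reason as above. The TPM ratio of Adam17 to Timp3 was 40.6 and 57.1 in the BSA pair and 76.2 and 68.4 in the AGEs pair, separated with an exact permutation p of 0.333. Frmd8, whose product keeps the ADAM17 complex at the cell surface, had a log2 fold change of 0.19 (SE 0.11). It was 0.072 without BSA replicate 1, 0.31 without BSA replicate 2 and 0.087 with the GC trend removed. The related sheddase gene Adam10 had 0.12 (SE 0.087), and 0.18 with the GC trend removed. The mRNA decay factor gene Zfp36l2, the most abundant of the list by TPM, had -0.037 (SE 0.095).

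Within the 26 genes of the receptor complex (adaptors, ubiquitin enzymes and kinases), 0 passed the threshold, 4 had an unadjusted p under 0.05 in edgeR and the median was -0.028. Ikbke, which encodes a kinase related to the IkappaB kinases, had 58.1 and 57.7 CPM in the BSA and 77.8 and 65.9 CPM in the AGEs libraries, and differed by 0.31 on the log2 scale (SE 0.11, unadjusted p 0.0125 and adjusted p 0.848 in edgeR). Birc2 had 44.4 and 37.6 CPM in the BSA and 34.0 and 32.1 CPM in the AGEs libraries, and differed by -0.31 on the log2 scale (SE 0.12, unadjusted p 0.0247 in edgeR). Tab2, which links the kinase TAK1 to ubiquitin chains, had 140 and 123 CPM in the BSA and 113 and 112 CPM in the AGEs libraries, and differed by -0.23 on the log2 scale (SE 0.093). These 3 genes did not overlap between the groups, nor did 9 of the 26 in all, against 35.3% of all genes tested. All 3 stayed under 1.5-fold. Each value shrank without 1 library, with Ikbke at 0.19 without AGEs replicate 1, Birc2 at -0.19 without BSA replicate 1 and Tab2 at -0.13 without BSA replicate 1, where none kept an unadjusted p under 0.05. The remaining gene was Map3k5, which encodes the stress kinase ASK1 and is named after its values were seen. It had 77.5 and 99.4 CPM in the BSA and 98.0 and 116 CPM in the AGEs libraries, with overlapping groups and a log2 fold change of 0.27 (SE 0.12) that was 0.10 without BSA replicate 1. Mapkapk2, the most abundant gene of the list, which encodes a kinase that promotes TNF translation, had -0.034 (SE 0.087).

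The 8 genes of the death arm had none past the threshold and none at an unadjusted p under 0.05, with a median of 0.087. Ripk3, the kinase of necroptosis, had a log2 fold change of 0.24 (SE 0.21), which was 0.56 without BSA replicate 1 and -0.021 without BSA replicate 2. Diablo, whose product binds the IAP proteins, had 0.15 (SE 0.15). Casp8, the initiator that c-FLIP restrains and the most abundant gene of the list, had -0.024 (SE 0.099), beside -0.0088 for Cflar.

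**Figure D4:**
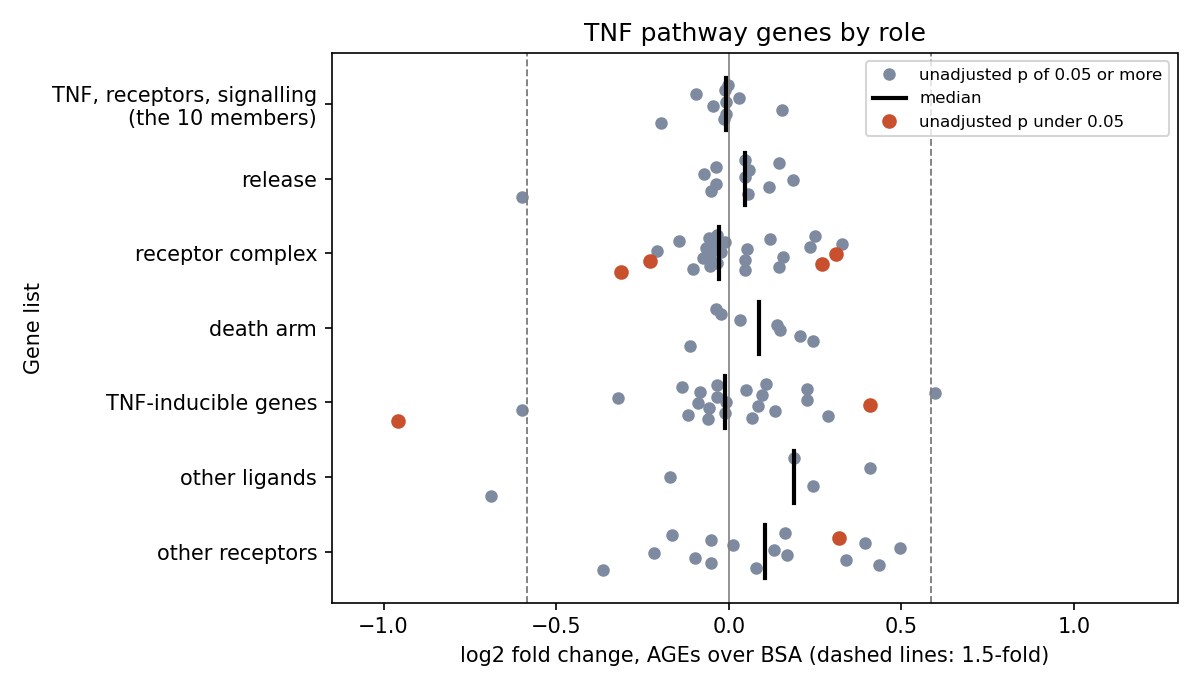
log2 fold change, AGEs over BSA (horizontal axis), of the 10 members and of the genes in 6 lists by role, 1 point per gene, spread vertically for legibility. Red points have an unadjusted p under 0.05, black bars are list medians and dashed lines mark 1.5-fold. Il1b at -0.96 is the red point beyond a dashed line.

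Of 28 TNF-inducible genes, 24 were tested, and Ccl5, Ccl20, Cxcl10 and Il6 are not in the table used here. Il1b was past the threshold, 0 were past it as higher, 23 did not pass, and the median was -0.0099. Il1b, the gene of the inflammatory cytokine IL-1beta, had 3.70 and 5.44 CPM in the BSA and 2.71 and 2.02 CPM in the AGEs libraries. Both AGEs libraries were below both BSA libraries, and the log2 fold change was -0.96 (SE 0.35, unadjusted p 0.0161 and adjusted p 0.848 in edgeR). Without BSA replicate 2 it was -0.64 and without AGEs replicate 2 it was -0.76, and neither passed the p limit. The summed dendritic cell markers were lower in the same libraries, and their part in the Il1b values was not tested. The paper counts Il1b among the M1-associated genes that were lower with AGEs in this RNA-seq comparison. It also reports lower IL-1beta mRNA by RT-PCR in peritoneal macrophages taken at 72 h after TG. Junb, an immediate early gene of the AP-1 family, had the smallest p of all 6 lists. It had 138 and 140 CPM in the BSA and 178 and 191 CPM in the AGEs libraries, and differed by 0.41 on the log2 scale (SE 0.085, unadjusted p 3.59e-04 and adjusted p 0.604 in edgeR), which lies under 1.5-fold. With the GC trend removed it was 0.19. Gadd45b, a stress gene induced through NF-kappaB, had 0.23 (SE 0.11), and 0.11 with the GC trend removed. Bcl2a1b, the most abundant of the list by TPM and an antiapoptotic gene with near-identical copies that make its count uncertain, had -0.058 (SE 0.15), with 0.22 without BSA replicate 1 and -0.29 without BSA replicate 2. Among genes named after their values were seen, Ptgs2, which encodes the inducible cyclooxygenase, and the chemokine gene Ccl2 passed the threshold as higher without BSA replicate 1, at 1.14 and 0.87 on the log2 scale, against 0.60 and 0.084 with all 4 libraries. Ptgs2 also passed it with the GC offset and replicate block, at 0.71.

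Among other ligands of the TNF family, 6 of 16 were in the table and 5 were tested, with none past the threshold, none at an unadjusted p under 0.05 and a median of 0.19. Tnfsf9 had a log2 fold change of -0.69 (SE 0.60) at 0.371 to 1.44 CPM, and ran from -1.61 to -0.12 as each AGEs library in turn was left out. The April gene Tnfsf13 had -0.17 (SE 0.16), which was 0.099 without BSA replicate 1 and -0.40 without BSA replicate 2. The Tweak gene Tnfsf12 had 0.19 (SE 0.19), which was -0.090 without BSA replicate 1 and 0.55 without BSA replicate 2. These 2 neighbours are spanned by a read-through gene that makes both counts uncertain. Among other receptors of the family, 16 of 25 were tested, with none past the threshold, 1 at an unadjusted p under 0.05 and a median of 0.11. That gene was Ltbr, the lymphotoxin beta receptor, with 41.0 and 42.5 CPM in the BSA and 53.0 and 51.1 CPM in the AGEs libraries. Its groups did not overlap, with a log2 fold change of 0.32 (SE 0.10, unadjusted p 0.00956 and adjusted p 0.848 in edgeR), and it was 0.14 with the GC trend removed. Tnfrsf21, which encodes death receptor DR6 and was the most abundant, had 0.17 (SE 0.090), and Tnfrsf26 had -0.22 (SE 0.13), which was -0.072 without BSA replicate 1 and -0.36 without AGEs replicate 1.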

How the data were processed

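The authors removed ribosomal RNA, prepared stranded libraries and aligned reads with HISAT2 to GRCm38 (mm10). Deposited gene-level read counts were used, whose counting tool and strand setting no source used here gives. The lowest count listed for any gene is 1, so absent genes may lack reads in a library, which was not tested. The authors calculated the deposited TPM with StringTie. The 8 per-sample columns of FPKM and log2 normalized values, and the authors' DESeq2 comparison (fold changes and p-values), were not used.

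Counts were tested over the whole table with edgeR 4.0.16 in R 4.3.3 (TMM, filterByExpr, robust glmQLFit, glmQLFTest, no block). A gene passed at a change over 1.5-fold and an unadjusted p under 0.05, and Benjamini-Hochberg adjustment covered 14181 genes. CPM values are TMM-normalized. The biological coefficient of variation was 12.9%. All members were named. Of each list, genes past the threshold, up to 3 with the smallest p and the most abundant gene were named. Of the genes this rule names, 1 is not reported here. Members and lists were chosen with earlier results of these data known. The steps were tested on simulated counts.

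Alternatives were DESeq2 1.42.0, limma-voom (limma 3.58.1), scaling by RLE, by upper quartile or by total counts alone, all genes unfiltered, a minimum of 50 counts in 2 or more libraries, limma on log2(TPM + 1), a replicate block, a GC offset (loess, span 0.5, GC of GENCODE M21 transcripts), each library left out, a fold limit of 2 and adjusted p. IDs of 15534 of 15575 genes matched RefSeq GRCm38.p6, the source of coordinates. The study calls the 2 libraries of a group biological duplicates, and no source used here states that they were separate mice. The p-values may therefore not cover variation from mouse to mouse. Those of edgeR draw both on differences within the groups sequenced here and on the spread estimated across genes.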

Additional observations from a re-analysis of the deposited data

How the results depend on the processing

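The count of members past the threshold stayed at 0 in both directions in all alternatives. Over the 15 alternatives that give a log2 fold change, 128 of 150 member values kept their sign and 22 reversed, none with an unadjusted p under 0.05. Tnf and Tnfrsf1a never reversed, and the largest change of a member that did was 0.095. Reversals were Adam17 with the GC offset (0.033) and with the GC offset and replicate block (0.032), Ripk1 on log2(TPM + 1) (-0.072), Cflar with the GC offset (0.042) and with the GC offset and replicate block (0.042), and Birc3 with upper quartile scaling (0.00067), no filter (0.0037), the GC offset (0.031) and the GC offset and replicate block (0.023). The cause was not tested. Leaving out 1 library (the one that remains in its group is assumed to vary like the rest), log2 fold changes ran from -0.077 to 0.063 for Tnfrsf1b, -0.079 to 0.053 for Adam17, -0.36 to 0.24 for Traf1, -0.12 to 0.10 for Traf2, -0.19 to 0.16 for Birc3, -0.063 to 0.049 for Cflar and -0.14 to 0.061 for Tnfaip2.

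Over all genes, 117 were higher and 134 lower in the AGEs libraries. These counts were 64 and 79 with DESeq2, 64 and 63 with a minimum of 50 counts in 2 or more libraries, 57 and 79 at a fold limit of 2, 0 and 0 at an adjusted p under 0.05, and 486 and 314 at an unadjusted p under 0.05 with no fold limit. On log2(TPM + 1), 59 were higher and 142 lower. With 1 library left out they ran from 125 to 311 higher and from 121 to 232 lower, the highest of each without BSA replicate 2. Libraries of the same number share only that number (a correlation of deviations of 0.028 over 2 pairs), and the fit with a replicate block called 131 higher and 133 lower. Leaving out each library in the 6 pathway lists was chosen after seeing the data: 2 genes (Ptgs2 and Ccl2) were then higher without BSA replicate 1, and Timp3 took the place of Il1b without BSA replicate 2. Among the members, depth limits Tnf and Traf1, at 146 to 267 reads per library. Of the list genes just named, Il1b had 49 to 120 reads per library and Ptgs2 48 to 128. Timp3 had 96 to 152 and Ccl2 107 to 232.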
